A study of Mus musculus with 7 samples.

Results

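The genes described here code for 9 proteins of the photoreceptor connecting cilium and of the transition zone, the gate at the base of cilia: *Rpgr*, *Rpgrip1*, *Rpgrip1l*, *Cep290*, *Nphp4*, *Spata7*, *Fam161a*, *Lca5* and *Iqcb1*. They were chosen by name, for where their proteins are found, by a rule that uses no measured value, though with earlier results of these data known. All 9 were among the 52550 genes of the counts table, and all 9 passed the filter on low counts with 20128 genes in all. The data are total RNA-seq of whole retina from C57BL/6J mice of 12.5 weeks, 4 WT mice and 3 SCA7 mice. SCA7 mice were homozygous for a knock-in (140Q/140Q) that places a long CAG repeat in the mouse *Atxn7* gene, so that the polyglutamine-expanded protein is made from its own promoter in every cell type that uses *Atxn7*. They model spinocerebellar ataxia type 7, an inherited disease of the cerebellum and retina. Each library held both retinas of 1 mouse. The question put to the data was how the mRNA of these genes compared between SCA7 and WT retina.

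The outer segment of a rod or cone, where light is captured, is a modified primary cilium. It is joined to the cell body by the connecting cilium, a narrow microtubule bridge through which all outer segment proteins must pass, and whose base is built like the transition zone of other cilia. Large proteins link the microtubules to the membrane there and form a gate, and mutations in their genes cause Leber congenital amaurosis, retinitis pigmentosa and syndromes that also involve the kidney and brain.

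Total counts ran from 56497675 to 96635832 per library. Levels are given as CPM, the counts of a gene scaled to a library total of 1000000 counts after TMM scaling. *Atxn7* itself was at 39.2 ± 4.26 CPM in the 4 WT mice (mean ± SD) and 37.6 ± 2.99 CPM in the 3 SCA7 mice, and the groups overlapped. Counts per gene do not show the repeat length, so this level does not check the genotype labels. *Xist* had 4 to 19 counts and each of 4 Y-linked genes 1893 to 11875 counts in the 7 libraries, so none of the libraries looked female. The labelled tissue was met by its markers: the 10 rod markers summed to 62570 to 64740 CPM in WT retina and to 16980 to 21950 CPM in SCA7 retina.

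The mRNA of 5 of the 9 genes was lower in SCA7 than in WT retina and that of none was higher. *Fam161a* fell to 0.657 of its WT level, *Rpgrip1* to 0.691, *Lca5* to 0.754, *Cep290* to 0.811 and *Rpgr* to 0.845 (edgeR quasi-likelihood test, Benjamini-Hochberg adjusted p under 0.05 over 20128 genes). *Iqcb1*, *Spata7*, *Rpgrip1l* and *Nphp4* lay between 0.94 and 0.982 of their WT levels and did not pass the test. By the same test 14.2% of all genes were lower (2852 genes) and 14.2% were higher (2853 genes). *Fam161a* and *Rpgrip1* also had a fold change (FC, SCA7/WT) under 0.7, the size the study asked of downregulated genes, which 7.91% of all genes met, and no member had an FC above 1.3, met by 7.47%. No member was higher at an unadjusted p under 0.05 either, nor by DESeq2 or limma-voom. In bulk retina, fewer cells of a type and less RNA per cell cannot be told apart.

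**Figure D1:**
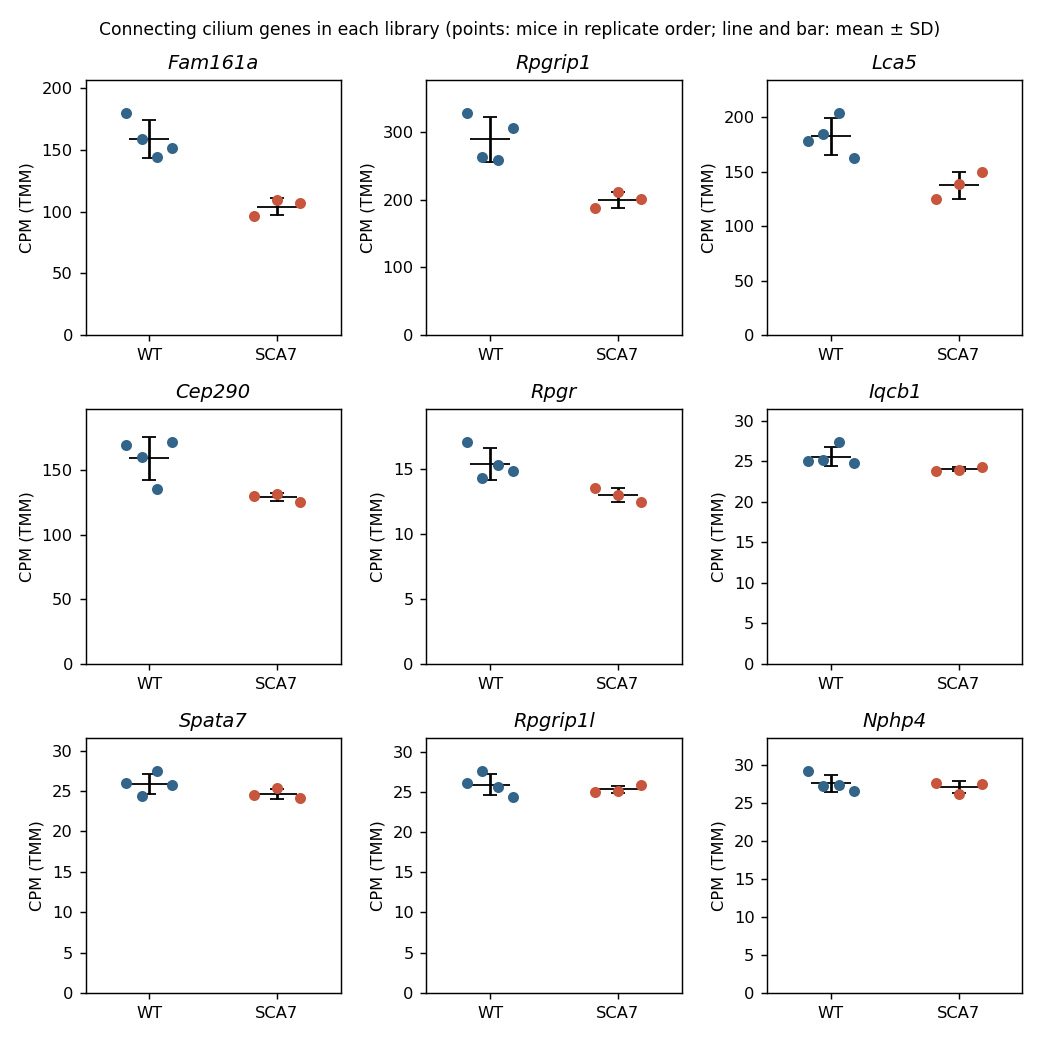
CPM of the 9 genes in each library, scaled by TMM, with 1 panel per gene. Points are libraries and bars are the mean ± SD of 4 WT and 3 SCA7 mice. All SCA7 points lie below all WT points for *Fam161a*, *Rpgrip1*, *Lca5*, *Cep290*, *Rpgr* and *Iqcb1*, and the groups overlap for the other 3 genes; with library totals alone 2 genes are apart in this direction (8.3% of all genes) and 4 in the other (40.8%).

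All 3 SCA7 libraries lay below all 4 WT libraries for 6 of the 9 genes, the 5 that passed the test and *Iqcb1*. Of all genes tested, 18.3% were separated in this direction and 19.3% in the other, in which no member was. Their median log2 fold change was -0.24, against -0.02 for all genes tested, where the middle 50% of genes lay between -0.26 and 0.17. Summed over the 9 genes, the level was 866.2 to 979.4 CPM in WT and 653.9 to 704.5 CPM in SCA7 retina.

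*Fam161a* (ENSMUSG00000049811; chromosome 11, 23007531 to 23030788, plus strand of GRCm38, the mm10 assembly) codes for a protein that binds the microtubules of the connecting cilium and is part of their inner scaffold. It was at 180, 159, 144 and 152 CPM in WT replicates 1 to 4 and at 96.5, 109 and 107 CPM in SCA7 replicates 1 to 3. The highest SCA7 library was well below the lowest WT library. The difference was the largest of the 9 genes, with a log2 fold change of -0.60 ± 0.08 (SE; 95% interval -0.78 to -0.43; edgeR adjusted p = 0.000186). The exact two-sided permutation test of the log2 CPM gave p = 0.0286, the smallest the 35 splits of 7 libraries allow.

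*Lca5* (ENSMUSG00000032258; chromosome 9, 83390293 to 83441127, minus strand) codes for lebercilin, a microtubule-associated protein of the ciliary axoneme that binds the intraflagellar transport machinery. WT retinas had 179, 185, 204 and 163 CPM and SCA7 retinas 125, 139 and 150 CPM, again without overlap. The log2 fold change was -0.41 ± 0.09 (SE; 95% interval -0.59 to -0.22; edgeR adjusted p = 0.00383; exact permutation p = 0.0286). WT replicate 3 had the highest *Lca5* and the lowest *Fam161a* of the WT libraries. Whether these genes follow each other within WT retina was not tested.

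*Rpgrip1* (ENSMUSG00000057132; chromosome 14, 52110704 to 52163546, plus strand) codes for the scaffold that holds RPGR in the connecting cilium. It was at 328, 264, 259 and 306 CPM in WT and at 188, 211 and 201 CPM in SCA7 retina. It fell by 0.53 ± 0.09 on the log2 scale (SE; 95% interval from -0.73 to -0.34; edgeR adjusted p = 0.00086; exact permutation p = 0.0286). Its FC of 0.691 stood just inside the limit of 0.7, and leaving out WT replicate 1, WT replicate 4 or SCA7 replicate 1 moved it past that limit while the adjusted p stayed under 0.05. The next gene outside the limit was *Lca5*.

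*Rpgr* (ENSMUSG00000031174; chromosome X, 10073621 to 10216920, minus strand), the gene of X-linked retinitis pigmentosa, codes for a regulator of small GTPases in the connecting cilium. Its levels were far lower, at 17.1, 14.3, 15.3 and 14.8 CPM in WT and 13.5, 13.0 and 12.5 CPM in SCA7 retina. The groups did not overlap, with a gap smaller than the range within either group, and the log2 fold change was -0.24 ± 0.08 (SE; 95% interval -0.41 to -0.07; edgeR adjusted p = 0.0348; exact permutation p = 0.0571). The call was lost without WT replicate 1 (adjusted p = 0.0839) and without SCA7 replicate 1 (adjusted p = 0.0749), 2 (adjusted p = 0.106) or 3 (adjusted p = 0.138). *Spata7* (ENSMUSG00000021007; chromosome 12, 98628157 to 98669815, plus strand), which codes for a partner of RPGRIP1 needed to keep it in the connecting cilium, had 25.95, 24.4, 27.5 and 25.7 CPM in WT and 24.5, 25.4 and 24.1 CPM in SCA7 retina. These groups overlapped, and the log2 fold change of -0.07 had a 95% interval from -0.21 to 0.07 (edgeR adjusted p = 0.43).

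*Cep290* (ENSMUSG00000019971; chromosome 10, 100487558 to 100574840, plus strand) codes for a long coiled-coil protein of the links between ciliary microtubules and membrane, and is a frequent cause of Leber congenital amaurosis. WT retinas had 169, 160, 136 and 172 CPM and SCA7 retinas 130, 132 and 126 CPM. The SCA7 libraries differed little among themselves, and WT replicate 3 came close to them. The log2 fold change was -0.30 ± 0.08 (SE; 95% interval -0.48 to -0.13; edgeR adjusted p = 0.0151; exact permutation p = 0.0571), and the call was lost without SCA7 replicate 1 (adjusted p = 0.0578) or 3 (adjusted p = 0.0675). *Iqcb1* (ENSMUSG00000022837; chromosome 16, 36828385 to 36872721, plus strand) codes for nephrocystin-5, a calmodulin-binding partner of CEP290. Its CPM was 24.99, 25.2, 27.4 and 24.8 in WT and 23.9, 24.0 and 24.3 in SCA7 retina. The groups were apart, and the log2 fold change of -0.09 did not pass the test (95% interval -0.22 to 0.04, edgeR adjusted p = 0.299). The exact permutation test of *Iqcb1* gave p = 0.0571, the same value as for *Cep290*.

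*Rpgrip1l* (ENSMUSG00000033282; chromosome 8, 91217030 to 91313262, minus strand), the paralog of *Rpgrip1*, acts in the transition zone of cilia in many tissues. It was at 26.1, 27.6, 25.6 and 24.3 CPM in WT and 24.99, 25.04 and 25.8 CPM in SCA7 retina, and the log2 fold change was -0.03 (95% interval -0.17 to 0.10; edgeR adjusted p = 0.724). *Nphp4* (ENSMUSG00000039577; chromosome 4, 152476706 to 152563183, plus strand) codes for nephrocystin-4, which binds RPGRIP1 and RPGRIP1L. It had 29.3, 27.2, 27.3 and 26.6 CPM in WT and 27.6, 26.2 and 27.5 CPM in SCA7 retina, with a log2 fold change of -0.03 (95% interval -0.16 to 0.10; edgeR adjusted p = 0.78). For both genes the groups overlapped, and the intervals leave out a fall as large as that of *Rpgrip1*.

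The scaling of the libraries bears on the genes with small changes. TMM factors were 0.8905 to 0.9742 in WT and 1.065 to 1.09 in SCA7 libraries. With total counts alone, a setting added after the data were seen, the median gene moved up by 0.19 on the log2 scale. The log2 fold changes were then -0.42 for *Fam161a* (edgeR adjusted p = 0.00374), -0.35 for *Rpgrip1* (adjusted p = 0.0173) and -0.21 for *Lca5* (adjusted p = 0.0333). *Cep290* at -0.12 (adjusted p = 0.38) and *Rpgr* at -0.05 (adjusted p = 0.638) no longer passed. *Iqcb1*, *Spata7*, *Rpgrip1l* and *Nphp4* then had values above 0, between 0.10 and 0.16, and did not pass the test (adjusted p of 0.0629 to 0.165). By CPM of library totals, 2 members had all SCA7 libraries below all WT libraries and 4 had them above, as did 8.3% and 40.8% of all genes.

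**Figure D2:**
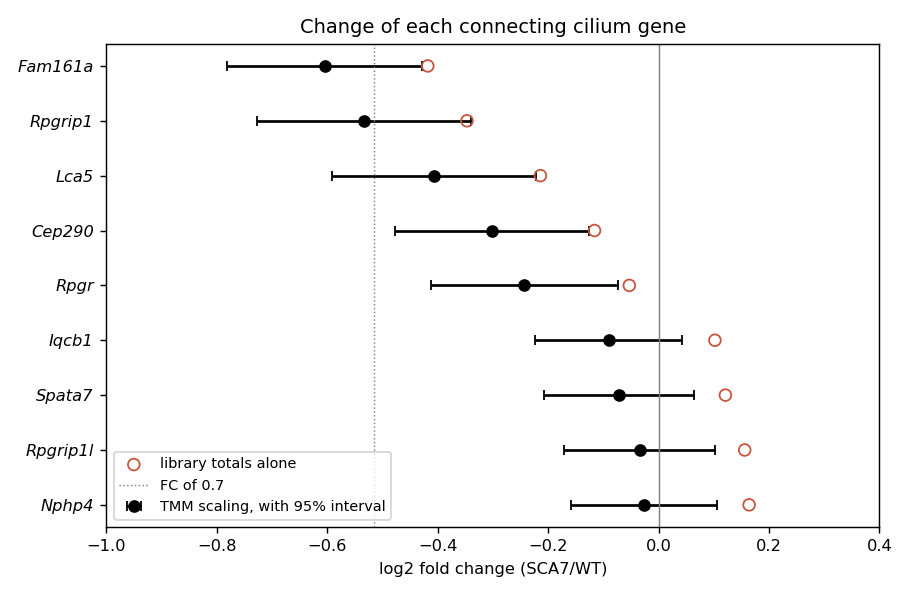
Log2 fold change (SCA7/WT) of the 9 genes from the edgeR fit, as filled points with 95% intervals under TMM scaling and as open circles with library totals alone. The solid vertical line marks no change and the dotted line the FC limit of 0.7. Under TMM scaling *Fam161a* at -0.60 and *Rpgrip1* at -0.53 lie beyond the limit and the intervals of *Iqcb1*, *Spata7*, *Rpgrip1l* and *Nphp4* include 0, and the open circles of these 4 genes lie above 0.

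The ratio of a pair of genes within a library does not depend on this scaling, and 6 pairs of interacting or related proteins were compared. There were 12.6, 9.56, 10.1 and 12.6 *Rpgrip1* counts for each *Rpgrip1l* count in WT retina and 7.53, 8.42 and 7.77 in SCA7 retina. The ratio of *Rpgrip1* to *Spata7* was 12.7, 10.8, 9.42 and 11.9 in WT and 7.68, 8.32 and 8.32 in SCA7 retina. That of *Rpgrip1* to *Rpgr* was 19.3, 18.5, 16.9 and 20.7 in WT and 13.9, 16.3 and 16.1 in SCA7 retina. In these 3 pairs every SCA7 library was below every WT library, with differences in the mean log2 ratio of -0.50, -0.46 and -0.29. The exact two-sided permutation p was 0.0571 for each of the 3, and 0.114 after Benjamini-Hochberg adjustment over the 6 pairs. With 35 splits, adjusted values can fall under 0.05 only where 4 or more of the 6 pairs reach the smallest p of 0.0286, so that these values miss the threshold says little about the pairs.

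The other 3 pairs overlapped between the groups. The mean log2 ratio of *Nphp4* to *Rpgrip1l* was 0.09 ± 0.08 in WT (SD, n = 4) and 0.10 ± 0.04 in SCA7 retina (SD, n = 3; exact permutation p = 0.886). That of *Cep290* to *Iqcb1* was 2.63 ± 0.22 in WT and 2.43 ± 0.05 in SCA7 retina, a difference of -0.21 (exact permutation p = 0.2). For *Fam161a* to *Lca5*, it was -0.20 ± 0.22 in WT and -0.40 ± 0.08 in SCA7 retina (exact permutation p = 0.229). In each of these pairs all 3 SCA7 libraries lay inside the WT range.

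**Figure D3:**
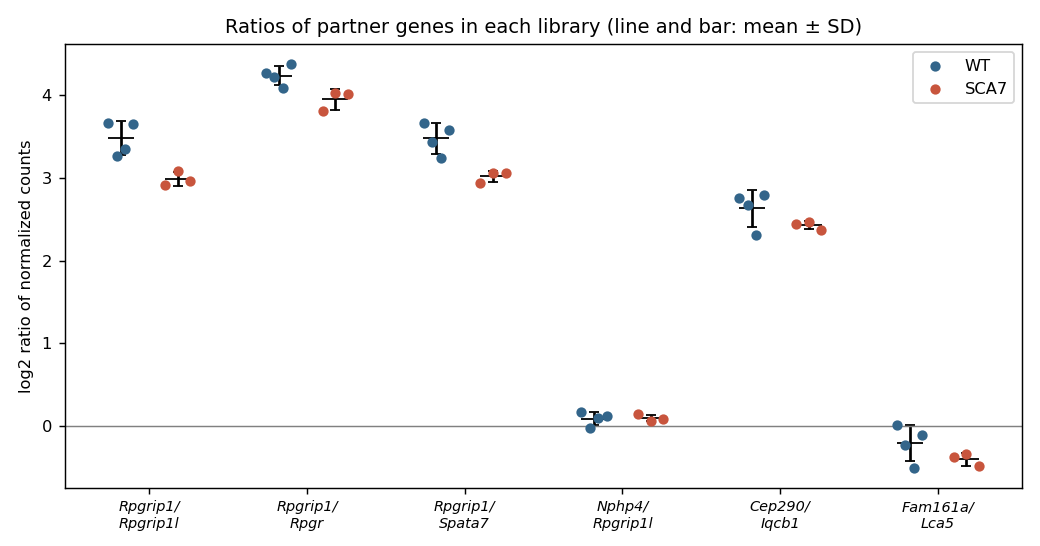
Log2 ratio of normalized counts of 6 pairs of the genes in each library. Points are libraries and bars are the mean ± SD of 4 WT and 3 SCA7 mice. SCA7 points lie below all WT points in the 3 pairs that hold *Rpgrip1*, with mean differences from -0.50 to -0.29, and the groups overlap in the other 3.

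Levels of different genes were compared as reads per kilobase (RPK), the normalized count divided by the median length of a gene's annotated transcripts. In WT retina *Rpgrip1* was highest at 20680 ± 2367 RPK (SD, n = 4), followed by *Lca5* at 14250 ± 1309, *Cep290* at 5884 ± 617.8 and *Fam161a* at 5658 ± 551.5 RPK. *Iqcb1* followed at 2633 ± 120.1, *Spata7* at 934.6 ± 42.92, *Rpgrip1l* at 837.2 ± 45.58, *Nphp4* at 663.9 ± 27.12 and *Rpgr* at 386.9 ± 29.73 RPK. *Cep290* and *Fam161a* overlapped in their WT ranges, as did *Spata7* and *Rpgrip1l*, and the other neighbours in this order were apart. Among 15422 protein-coding genes tested, *Rpgrip1* stood at percentile 97.9 of WT RPK, *Lca5* at 96.2, *Cep290* at 87.9 and *Fam161a* at 87.4, and *Rpgr* at 36.7.

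The order within the upper group depended on the length used. The median transcript of *Rpgrip1* measured 966 bases and its longest 7878 bases, since 19 transcripts, many of them short, are annotated. By the longest transcript *Fam161a* was highest at 4216 RPK, before *Lca5* at 3028, *Rpgrip1* at 2536 and *Cep290* at 1339. *Spata7* at 644.5 RPK and *Iqcb1* at 631.7 RPK came next, then *Nphp4* at 378.9, *Rpgr* at 278.5 and *Rpgrip1l* at 255 RPK. *Rpgrip1*, *Lca5*, *Cep290* and *Fam161a* were the highest 4 by every length used. The percentiles moved too: by the longest transcript they were 90.5, 92.5, 80.3 and 95.2 for these genes in turn, and 42.4 for *Rpgr*.

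The 4 highest genes were also those with the 4 largest falls, and *Rpgr*, the lowest or next to lowest by these lengths, was the fifth gene lower in SCA7 retina. In SCA7 retina the means were 14410 ± 769.2 RPK (SD, n = 3) for *Rpgrip1*, 10840 ± 992 for *Lca5*, 4815 ± 99.98 for *Cep290* and 3752 ± 238.1 for *Fam161a*. The order of the 9 means was as in WT. WT libraries also differed more in the upper 4 genes, with a coefficient of variation of 9.19% to 11.4%, than in *Iqcb1*, *Spata7*, *Rpgrip1l* and *Nphp4*, where it was 4.09% to 5.44%.

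**Figure D4:**
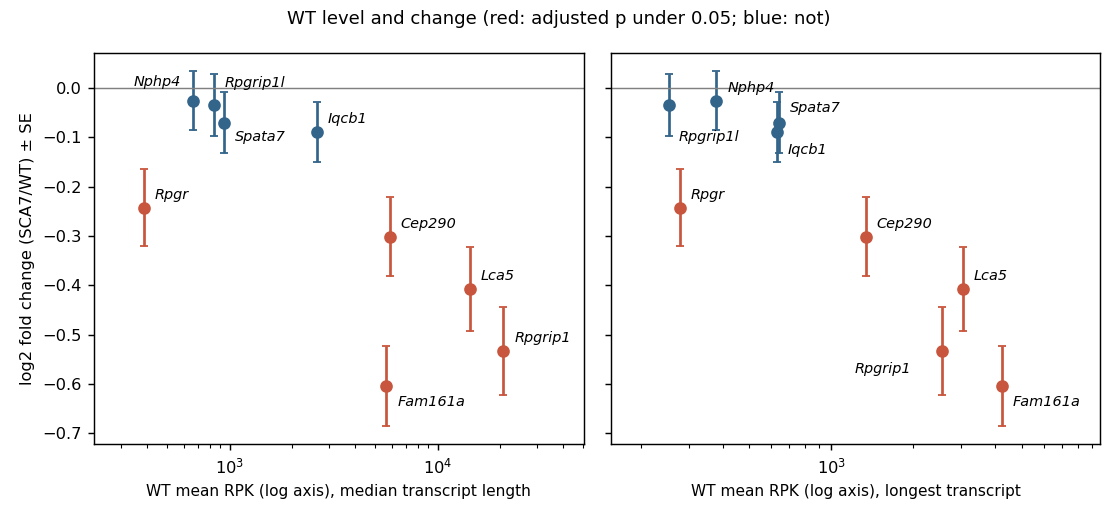
WT level in RPK on a log axis against the log2 fold change (SCA7/WT) ± SE of the 9 genes, with the median transcript length at the left and the longest transcript at the right. *Rpgrip1*, *Lca5*, *Cep290* and *Fam161a* lie at the right in both panels, with log2 fold changes from -0.60 to -0.30, and *Rpgr* is the gene of low level that also fell.

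The start of transcription of *Rpgrip1* is read here beside that of its paralog *Rpgrip1l* and of *Fam161a*, to show how these promoters differ in sequence. Each line gives the 250 bases before a RefSeq start site on GRCm38.p6, 5′ to 3′ on the gene's own strand, with CG pairs in capitals. They lie at chr14:52110653-52110902 (*Rpgrip1*, plus strand), chr8:91313223-91313472 (*Rpgrip1l*, minus strand) and chr11:23008097-23008346 (*Fam161a*, plus strand). All 3 starts lie inside the Ensembl gene models.
Rpgrip1: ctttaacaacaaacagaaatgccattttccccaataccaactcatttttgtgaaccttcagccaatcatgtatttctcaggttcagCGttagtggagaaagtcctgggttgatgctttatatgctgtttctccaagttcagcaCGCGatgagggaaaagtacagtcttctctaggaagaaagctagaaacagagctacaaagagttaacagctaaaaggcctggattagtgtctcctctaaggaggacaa
Rpgrip1l: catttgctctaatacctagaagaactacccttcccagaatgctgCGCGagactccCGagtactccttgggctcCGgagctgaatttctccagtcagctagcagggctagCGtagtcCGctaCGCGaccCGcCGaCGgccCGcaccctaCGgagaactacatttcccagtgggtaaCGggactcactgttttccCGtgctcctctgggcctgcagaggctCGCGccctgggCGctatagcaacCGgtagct
Fam161a: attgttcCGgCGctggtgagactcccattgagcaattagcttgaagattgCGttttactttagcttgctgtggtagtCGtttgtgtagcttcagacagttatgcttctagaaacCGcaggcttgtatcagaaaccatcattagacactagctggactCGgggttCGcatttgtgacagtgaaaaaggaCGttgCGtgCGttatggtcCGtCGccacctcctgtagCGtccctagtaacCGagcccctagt

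The *Rpgrip1* sequence holds 3 CG pairs and 41.6% G and C, that of *Rpgrip1l* 19 CG pairs and 59.6%, and that of *Fam161a* 14 CG pairs and 49.2%. Over the same 250 bases before each of 32851 RefSeq starts the median was 6 CG pairs and 52.4%. *Cep290* (18 CG pairs), *Spata7* (12) and *Iqcb1* (19) have 1 start each, *Lca5* has starts with 15 and 18 and *Rpgr* with 15 and 24. *Nphp4* has 1 start with 4 CG pairs beside starts with 22 and 17, and a further *Fam161a* start has 0. The start richest in CG pairs thus had 3 of them in *Rpgrip1* and 12 or more in each of the other members.

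Photoreceptor genes are under the control of the transcription factors CRX and NRL. In the study's lists of their direct targets, made from published binding and knockout data of other mice, *Rpgrip1*, *Fam161a* and *Lca5* are CRX targets and *Cep290* and *Fam161a* are NRL targets. These 4 genes are the highest 4 in WT retina, and the 5 members on neither list include *Rpgr* and the 4 that did not pass the test. No test was made of this. The study reports that only a minority of its CRX and NRL target genes were downregulated in SCA7 retina.

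In windows from 250 bases before to 50 bases after 14 RefSeq starts of the 9 genes, both strands were searched for short letter strings. The core TAATCC of CRX and other OTX-type sites was found in 1 window, that of *Rpgrip1*, as GGATTA with its first base 28 bases before the start, and it is in 7.06% of all 32851 windows. The part-site TGCTGA of NRL and other MAF factors was found at *Rpgrip1*, as TCAGCA with its first base 113 bases before the start, and at 1 start of *Nphp4*, against 19.48% of all windows. The RFX part-site GTTGCCA, a motif of many cilium genes, was found at another *Nphp4* start, against 4.38% of all windows. These are matches of letters, not binding sites.

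Beyond the 9 genes, 4 lists of other cilium genes were counted in the same fit. Of 15 genes of the MKS module, the membrane-side proteins of the transition zone, 3 were lower and 2 higher, with a median of -0.09. *Tmem218* fell by 0.60 on the log2 scale (edgeR adjusted p = 0.000951), while *Tmem237* at 0.41 (adjusted p = 0.000476) and *B9d1* at 0.40 (adjusted p = 0.0112) rose.

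The list of axoneme and inner scaffold genes, the microtubule core to which FAM161A belongs, had 15 genes tested, of which 6 were lower and 1 was higher, with a median of -0.37. *Rp1*, a photoreceptor microtubule protein that aligns outer segment discs, fell from 2898 ± 106.9 CPM in WT to 1711 ± 87.88 CPM in SCA7 retina, a log2 fold change of -0.76 (edgeR adjusted p = 1.63e-05). *Poc1b*, a centriole and inner scaffold protein, was lower by -0.68 (adjusted p = 9.83e-05). *Cetn1* of this list did not pass the filter on low counts. Of 13 genes of the basal body and its distal appendages, 5 were lower and 1 higher, with a median of -0.17. The distal appendage genes *Sclt1* at -0.74 (adjusted p = 8.8e-05) and *Cep164* at -0.71 (adjusted p = 0.000218) had the largest falls there.

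Of the 9 genes in the list of small GTPases and cargo carriers, 3 were lower and 1 higher, with a median of -0.15. *Unc119*, a carrier of rod transducin, had a log2 fold change of -1.13 (edgeR adjusted p = 5.91e-06), and *Arl13b*, a ciliary GTPase, one of -0.63 (adjusted p = 2.8e-05). *Rab8b* rose by 0.42 (adjusted p = 0.000211). The shares are to be read against the 14.2% of all genes in each direction. With library totals alone the counts lower and higher were 2 and 4 for the MKS module, 3 and 4 for the axoneme and inner scaffold, 2 and 2 for the basal body and 3 and 4 for the small GTPases and carriers, where 7.43% of all genes were lower and 36.2% higher. The genes named from these lists kept their direction and their call under that setting. The basal body list had 3 genes lower without SCA7 replicate 2 or without SCA7 replicate 3, with 2 genes higher without WT replicate 4 and none without SCA7 replicate 1, and *B9d1* lost its call without SCA7 replicate 2 (edgeR adjusted p = 0.0648).

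**Figure D5:**
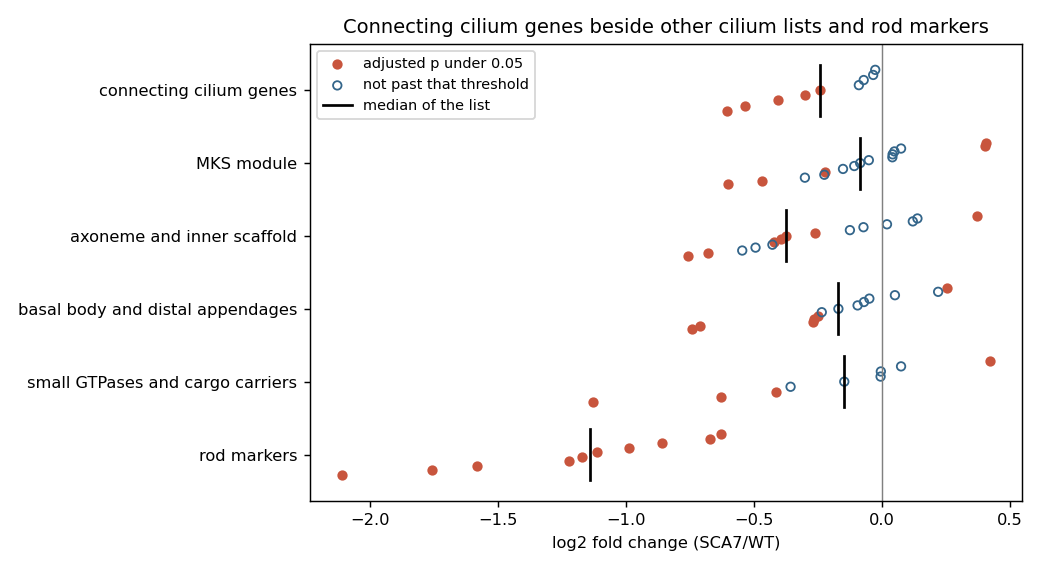
Log2 fold change (SCA7/WT) of every gene tested in the 9 members, in 4 lists of other cilium genes and in the rod markers, with 1 point per gene and the median of each list marked. Rod markers lie between -2.11 and -0.63, below all 9 members, and the medians of the 4 other cilium lists drawn lie between -0.37 and -0.09.

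Rod phototransduction and identity genes are given for comparison, without a test of the difference. All 10 rod markers were lower, with log2 fold changes from -2.11 to -0.63 and a median of -1.14. The smallest of these falls, -0.63 ± 0.09 (SE) for *Cngb1*, a subunit of the rod channel, was close to the -0.60 ± 0.08 of *Fam161a*. Of 10 cone markers, 9 were lower and 1 was higher, with a median of -1.57. The 10 microglia markers were all higher, summing to 74.81 to 94.07 CPM in WT and 151.5 to 169 CPM in SCA7 retina, and none was at 0. Müller glia markers numbered 5 higher and 1 lower of 8, with a median of 0.32. Bipolar markers (5 of 8 lower, 1 higher), amacrine markers (3 of 8 lower) and ganglion cell markers (1 of 8 lower) had medians of -0.30, -0.27 and -0.11.

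Markers of tissue next to the retina and of blood were counted as well. The 8 pigment epithelium markers summed to 77.29 to 151 CPM in WT and 25.16 to 60.19 CPM in SCA7 retina, with 2 lower, 1 higher and 5 that did not pass. Of 5 red blood cell markers tested, 1 was lower, and their sum was 54.51 to 76.74 CPM in WT and 30.53 to 61.65 CPM in SCA7 retina, which overlap. The part of these cell types in the members' changes was not tested.

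Genes with profiles most like those of the member of highest RPK and of the member of largest fall were sought among 14711 other genes, by the root mean square difference of centred log2 CPM over the 7 libraries. Nearest to *Rpgrip1* were *Gm42513* (difference 0.0384), *Gm48260* (0.0483) and *Gm11696* (0.0493). Nearest to *Fam161a* were *Slc38a6* (0.0409), *Ahrr* (0.0413) and *4933406P04Rik* (0.0515). The log2 fold changes of these 6 genes ran from -0.65 to -0.48, and all passed the test, as a gene of like profile has to be.

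Reads of overlapping genes may enter the counts, since the strand setting of the counting is not given in the sources used here. Exons of *Rpgrip1* share 1057 bases, 8.70% of its exon bases, with *Supt16* on the other strand, which had a log2 fold change of 0.20 (edgeR adjusted p = 0.0437), in the other direction. *Cep290* shares 7.58% with *4930430F08Rik* on the other strand, at 0.08 (adjusted p = 0.362). *Rpgr* shares 208 bases, 2.87% of its exon bases, with *Srpx* on the same strand, which fell by 1.48 (adjusted p = 1.82e-05) and had 40 to 134 counts per library. *Kcnab2* overlaps *Nphp4* without a shared exon base.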

How the data were processed

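Total RNA of both retinas of each mouse (4 WT, 3 SCA7) was depleted of ribosomal RNA and made into stranded libraries, read as single reads. The authors mapped the reads to mm10 with TopHat2 (2.0.14) and Bowtie2 (2.1.0) and counted reads for each Ensembl gene in HTSeq (0.6.1), the versions given in the submitters' processing notes. The strand setting is not given in the sources used here. The table they deposited holds raw counts for 52550 genes, without normalization, of which 52403 matched an annotation of GRCm38. Total counts per library were 56497675 to 96635832, and p-values rest on the spread between mice within a group.

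Genes were kept by filterByExpr of edgeR (4.0.16, R 4.3.3), normalized by TMM and tested between genotypes by its robust quasi-likelihood fit (glmQLFit, glmQLFTest) with no covariate, and p-values were adjusted by Benjamini-Hochberg for 20128 genes. CPM used the TMM-scaled totals, and RPK used DESeq2 (1.42.0) size factors and transcript lengths of the annotation. Log2 CPM of single genes and log2 ratios of normalized counts (0.5 added) were compared between genotypes by the exact permutation test (two-sided, 35 arrangements). Fits were checked on simulated counts. Alternatives were DESeq2 size factors, DESeq2, limma-voom (limma 3.58.1), TMM without rod and cone markers, other filters, thinned counts, an *Xist* covariate, a replicate block, a stricter adjusted p, each library left out and, added after the data were seen, library totals alone. Sequences are from RefSeq (GRCm38.p6), which had start sites for all 9 genes.

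The text names the 9 genes, *Atxn7*, genes overlapping a member, in each cilium list up to 3 genes with the largest falls and up to 3 with the largest rises among those past the adjusted p and FC limits, and the 3 nearest profiles of 2 members. The members and lists were chosen with earlier results of these data known. ChIP-seq data were not analysed here, and the result of 1 further list of cilium genes is not reported here.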

Additional observations from a re-analysis of the deposited data

Results flagged for a closer look

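In WT retina, *Iqcb1* stood at 27.4 CPM in replicate 3 and at 24.84 to 25.15 CPM in the other 3 libraries, a gap of 0.878 of the group's range. This was the 1 outlying value among 15 sets of WT values tested (the members' CPM and the log2 ratios of the pairs), where chance flags about 1 in 20 such sets. Without this library the log2 fold change of *Iqcb1* was -0.06 in place of -0.09, and it did not pass the test in either case.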

How the results depend on the processing

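*Fam161a*, *Rpgrip1* and *Lca5* were lower at an adjusted p under 0.05 in every fit made, each leave-one-out fit included, with log2 fold changes of -0.65 to -0.54, -0.58 to -0.47 and -0.47 to -0.34 over the leave-one-out fits. The number of members lower, 5, became 3 at an adjusted p under 0.01, 3 with library totals alone and 3 to 5 when each library was left out. The number with FC under 0.7, 2, became 1 without a filter on low counts, 1 with an *Xist* covariate (which carries no contrast of sex here), 1 with the replicate block, 0 with library totals alone and 1 to 2 when each library was left out; in the fits with 1, the FC of *Rpgrip1* lay just above the limit. *Rpgr* also lost its call without a filter (-0.22, adjusted p = 0.0703). *Nphp4* changed sign without WT replicate 1 (0.002; leave-one-out fits gave -0.045 to 0.002). With library totals alone the signs of *Rpgrip1l* (0.156), *Nphp4* (0.164), *Spata7* (0.121) and *Iqcb1* (0.102) turned, and by CPM of library totals 2 members lay below the WT range and 4 above it, against 6 and 0. That setting shifts all genes alike by its construction; the cause of the other changes was not tested. Under it 1495 genes of the 20128 were lower and 7296 higher.

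Whether the replicate numbers pair WT and SCA7 libraries is not settled here. The labels state no pairing, though sample titles carry nearby animal numbers for WT and SCA7 libraries of the same replicate number. Same-numbered libraries had correlations of 0.022, 0.137 and 0.153 of their deviations from the group means. Each was the highest correlation of its WT library, while SCA7 replicate 1 correlated more with WT replicate 2 (0.045). With the replicate block, 5 members were lower, and over all genes 3418 were lower and 3461 higher, against 2852 and 2853 without it. The lists of other cilium genes then had 4 (MKS module, against 3), 9 (axoneme and inner scaffold, against 6), 5 (basal body, as before) and 5 (small GTPases and carriers, against 3) genes lower, and with the *Xist* covariate 4, 8, 6 and 5; genes higher were 2, 1, 2 and 1 with the block and 2, 2, 2 and 1 with the covariate, against 2, 1, 1 and 1. Leaving out a library gave 1771 to 3363 genes lower and 1748 to 3523 higher, with the fewest without SCA7 replicate 1. At an adjusted p under 0.01, 1580 genes were lower and 1608 higher. With 4 and 3 mice, the intervals of the members not called reach falls of 0.16 to 0.22 on the log2 scale, so falls of that size are not left out by these data.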
